A study of Rattus norvegicus with 6 samples.

Results

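The respiratory chain and ATP synthase were followed through the nuclear genes that encode their subunits. The samples were flat cultures of rat cells labelled condylar chondrocytes, and rat condylar organoids, whose labels name no single cell type. Members were chosen by symbol: complex I genes of the series Ndufa, Ndufb, Ndufc, Ndufs and Ndufv, the 4 Sdh genes of complex II, the Uqcr genes and Cyc1 of complex III, the Cox5 to Cox8 genes of complex IV, and the Atp5f1, Atp5mc, Atp5p, Atp5me, Atp5mf and Atp5mg genes of ATP synthase. Ndufa4, Cox7a1 and Cox7a2 were left out of the rule, and its pattern does not take in Cox4i1 or Ndufab1. The rule found 74 of the 17954 genes in the files: 35 of complex I, 4 of complex II, 9 of complex III, 11 of complex IV and 15 of ATP synthase. Expression was measured by mRNA sequencing in 3 libraries of each group. The 2D culture group was cartilage cells of the condyle of the lower jaw, labelled chondrocytes and kept in DMEM with 20% fetal bovine serum. The organoid group was condylar cartilage organoids kept in a chondrogenic medium whose composition the labels do not give. Both were held at 37 °C and 5% CO2. No age, sex or strain of rat, time in culture or genetic change is given for either group, so format, medium, serum and any difference in time cannot be told apart. Whether libraries with the same label stem from different animals or cultures is not stated, so the p-values rest on a spread among samples that may be technical.

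Oxidative phosphorylation makes ATP in the inner mitochondrial membrane. Complex I takes electrons from NADH and complex II from succinate, both pass them to ubiquinone, complex III passes them on to cytochrome c, and complex IV hands them to oxygen. Complexes I, III and IV pump protons, and ATP synthase lets the protons back through its membrane rotor to drive ATP formation in its catalytic head. Most subunits come from nuclear genes and a few from mitochondrial DNA, so the 2 genomes supply 1 assembly. Cartilage has no blood vessels, and its chondrocytes are known for living at low oxygen and relying largely on glycolysis.

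Library totals ran from 18592574 to 26472447 estimated counts. Levels are CPM with TMM-scaled library sizes, and the levels of a gene are listed in the order of libraries 1, 2 and 3 of each group. Each change is the log2 of organoid over 2D culture with its SE. A gene was called where edgeR's quasi-likelihood test gave a p of less than 0.05 after adjustment over all 13052 genes tested, with 3594 called (27.5%). Col1a1, a collagen gene of bone and fibrous tissue, took 20.0% to 26.4% of all counts in organoids and 3.31% to 4.35% in 2D culture, and TMM scaling was used to offset this. The labelled chondrocyte identity was checked against 9 marker genes. In 2D culture Col2a1 stood at 2.91, 4.22 and 4.89 CPM and Matn3 at 0 to 0.402 CPM. Col9a1, Col11a2 and Snorc had means of 0.164, 0.306 and 0.195 CPM, so several cartilage markers were close to 0 there. Others were not: Comp, Hapln1 and Sox9 had means of 7.92, 21.3 and 53.7 CPM, and Acan stood at 1454, 1513 and 1413 CPM. In organoids 8 of the 9 rose, and the summed level of the 9 was 11565 to 99614 CPM against 1499 to 1601 CPM. Of all genes tested 14.9% rose, which is the background for this and the marker counts below. All 6 osteoblast markers rose as well, with sums of 12378 to 20395 CPM against 208 to 220.002 CPM. Of 7 osteoclast and macrophage markers in the files 3 were tested and 1 rose, with sums of 103 to 298 CPM in organoids and 139 to 141 CPM in 2D culture, mostly from Ctsk, which did not pass. Acp5 rose, from 4.35, 3.55 and 4.18 CPM in 2D culture to 98.98, 23.2 and 14.8 CPM in organoids. Csf1r, not tested, was at 0.153, 0 and 0.279 CPM in 2D culture and at 32.5, 16.7 and 0.142 CPM in organoids, while Adgre1 had 0 counts in all 6 libraries. Striated muscle markers (10 genes, 1 of 6 tested rose) summed to 6.36 to 77.0 CPM in organoids and 8.15 to 10.9 CPM in 2D culture. Endothelial markers (6 genes, 0 of 1 tested called, by edgeR) stayed at 4.42 CPM or less, and adipocyte markers (5 genes, 1 of 1 tested rose) at 13.4 CPM or less. The part of these markers in the results below was not tested.

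Organoid 2 stood apart from the other libraries in the order of the subunit genes. Over the 72 tested subunit genes, Spearman correlations of log2 CPM were 0.93 to 0.994 in the 10 pairs of libraries without organoid 2 and 0.419 to 0.52 in the 5 pairs with it. Over all genes tested the same ranges were 0.774 to 0.994 and 0.694 to 0.866. These values describe pairs of libraries that share the genes and their lengths. In organoid 2, 23 of the 72 subunit genes lay more than 2-fold above the mean of organoids 1 and 3, a larger share than the 22.3% of all genes tested. More than 2-fold below it lay 5 of the 72, a smaller share than the 20.6% of all genes tested. The median of the subunit genes in organoid 2 lay 0.44 log2 units above organoids 1 and 3, but they did not shift in 1 direction. It was 0.74 in complex I, -0.65 in complex II, 0.12 in complex III, 0.78 in complex IV and 0.06 in ATP synthase. Within complex I it was -0.12 in core and 0.81 in accessory subunits. For genes of cytosolic ribosomal proteins, a set added after the data had been seen, it was 0.80. RNA quality and transcript length were not analysed here, and the part of either in this pattern was not tested. Counts of called subunit genes are therefore given with and without organoid 2. It was singled out by its values in these same genes, and leaving out a deviating library narrows the spread among organoids. Calls and p-values without organoid 2 depend on that choice and serve as description only.

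Genes of the respiratory chain and ATP synthase that changed were lower in organoids, by 0.68 to 1.27 on the log2 scale. Of 74 members 72 passed the low-count filter. In organoids 15 of the 72 fell (20.8%, beside a background of 12.6% of all genes tested), 0 rose (background 14.9%) and 57 did not pass. No member was higher at an unadjusted p under 0.05 in edgeR, and DESeq2 and limma-voom called 0 higher too, while 30 were lower at an unadjusted p under 0.05 (41.7%, background 19.7%). The fitted change was below 0 in 66 members (91.7%, against 51% of all genes). Its median was -0.57, within a range of -1.27 to 0.75, beside a median of -0.03 over all genes tested. In 37 members (51.4%, background 30.2%) all 3 organoids lay below all 3 2D cultures, and in 0 members did they lie above (background 23.4%). Summed over the 74 genes the level was 9209, 10053 and 9854 CPM in 2D culture 1, 2 and 3 and 5417, 6841 and 6436 CPM in organoid 1, 2 and 3. The groups do not overlap in this sum. In bulk RNA, fewer cells of a type and less RNA per cell cannot be told apart.

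**Figure D1:**
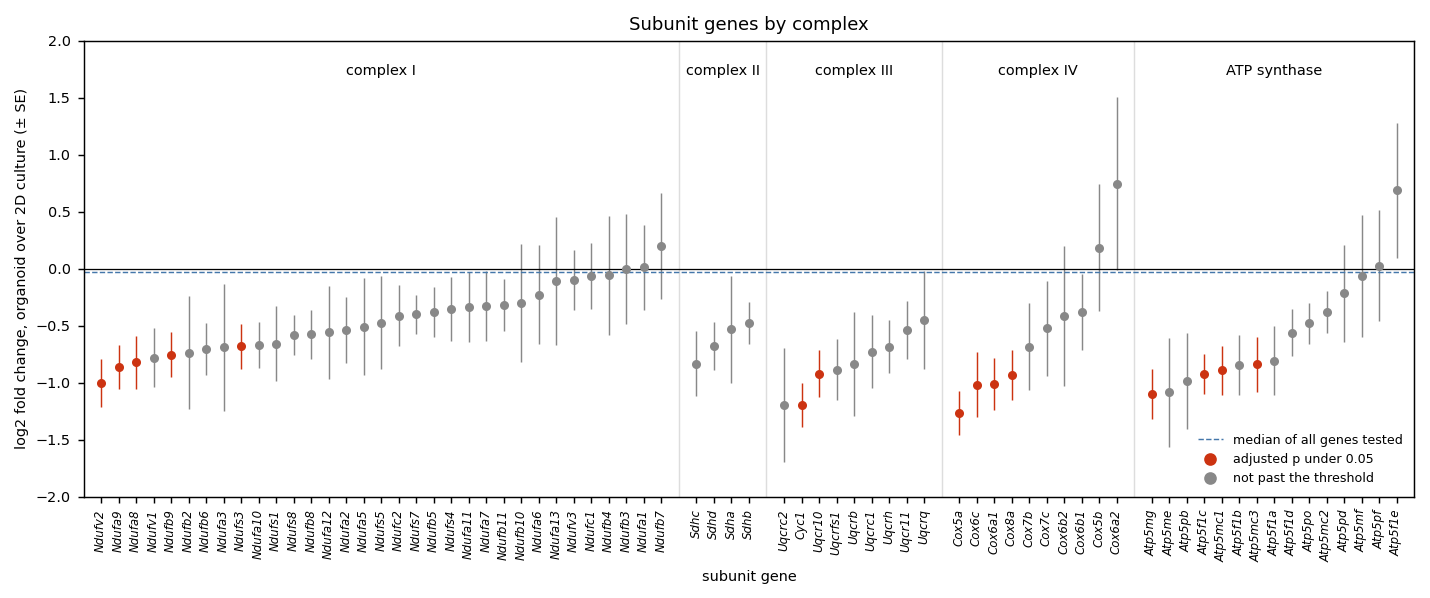
Log2 fold change (organoid over 2D culture, ± SE) of 71 of the 72 tested subunit genes, ordered within each complex; red points have an adjusted p under 0.05 and the dashed line is the median of all genes tested (-0.03). The 15 red points lie between -1.27 and -0.68, and the points that did not pass reach up to 0.75.

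Organoids 1 and 3 were below 2D culture in nearly all members, and organoid 2 was not. In organoid 1, 70 of the 72 members lay below every 2D culture (97.2%, against 48% of all genes tested), and in organoid 3, 68 did (94.4%, against 51.6%). Both organoids lay below in 66 members (37.8% of all genes). In organoid 2 the count was 40 (55.6%, against 49.8%). There 21 of the 72 members lay above every 2D culture, a smaller share than the 43.6% of all genes. Members above every 2D culture numbered 0 in organoids 1 and 3, against 5465 and 5301 of the 13052 genes tested. The median log2 ratio to the mean of 2D culture was -0.90, -0.50 and -0.61 in organoid 1, 2 and 3. Its interquartile range over the members was 0.56 and 0.48 in organoids 1 and 3 and 1.13 in organoid 2, against 1.75, 1.99 and 2.40 over all genes in organoids 1, 3 and 2. Without organoid 2 the fitted change was below 0 in all 72 tested members (51.5% of all genes), 44 fell (61.1%, background 19.2%) and 0 rose, by edgeR. Without organoid 1 and without organoid 3, 17 and 21 fell (background 17.1% and 17.3%). Leaving out a 2D culture lowered the count instead: 3, 2 and 2 members fell without 2D culture 1, 2 and 3 (4.17%, 2.78% and 2.78%), beside 2.98%, 3.27% and 3.03% of all genes. The members that kept their calls there were Cyc1 and Cox5a in each case, and Atp5mg without 2D culture 1. The median SD of log2 CPM over the members was 0.110 in 2D culture and 0.464 in organoids, against 0.129 and 0.640 over all genes tested. The median change stayed between -0.67 and -0.48 when any 1 library was left out.

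**Figure D2:**
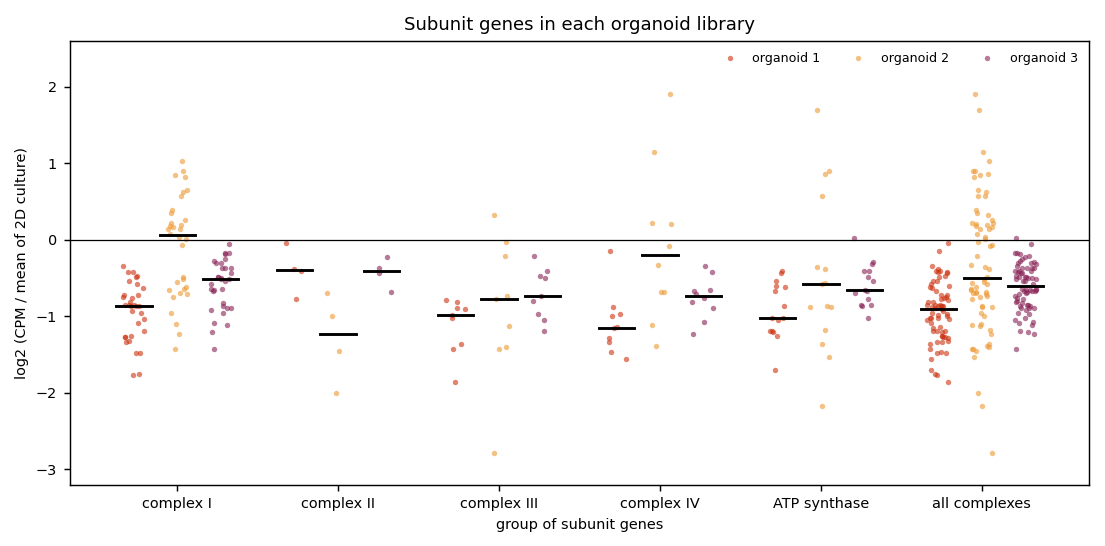
Log2 ratio of CPM to the mean of the 2D cultures for 71 of the 72 tested subunit genes in each organoid library, by complex; each point is a gene and black bars are medians over all tested genes. Organoids 1 and 3 form narrow bands below 0 (medians -0.90 and -0.61 over all 72), while the points of organoid 2 are spread from -2.79 to 1.91.

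Complex I, the NADH dehydrogenase, had 5 of 34 tested genes lower and 0 higher, 14.7% against 12.6% of all genes and so near the background. At an unadjusted p under 0.05 in edgeR 10 were lower (background 19.7%), and the median was -0.49. The 7 nuclear core subunits of complex I carry the flavin, the iron-sulfur clusters and the quinone site. All 7 had a fitted change below 0 (median -0.68), with 2 called (28.6%, background 12.6%). Ndufv2 (gene ID 81728), an iron-sulfur subunit of the NADH-binding tip, was at 138, 139.9 and 140.5 CPM in 2D culture and at 57.7, 85.1 and 65.6 CPM in organoids. All organoids lay below all 2D cultures, whose values were within 3 CPM of each other, and Ndufv2 fell by 1.005 on the log2 scale (-1.005 ± 0.21, edgeR adjusted p = 0.0154). Ndufs3, a core subunit of the arm that leads to the quinone site, was at 80.2, 76.97 and 71.4 CPM in 2D culture and at 41.8, 46.8 and 54.2 CPM in organoids and fell by 0.68 (edgeR adjusted p = 0.0423). This was the smallest fall among the 15 called members. Ndufv1, which binds NADH and the flavin, was at 175, 166 and 161 CPM in 2D culture and at 91.6, 71.4 and 129.8 CPM in organoids and did not pass (-0.78 ± 0.26, edgeR adjusted p = 0.0633). Ndufs8 and Ndufs7, which hold iron-sulfur clusters near the quinone site, had changes of -0.58 ± 0.18 and -0.40 ± 0.17 (edgeR adjusted p = 0.0512 and 0.1298). In both, all organoids lay below all 2D cultures without passing the test.

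Ndufs1, the largest core subunit, was at 111, 90.02 and 104 CPM in 2D culture and at 65.8, 37.7 and 90.04 CPM in organoids, so that organoid 3 reached the lowest 2D culture and organoid 2 lay far below the others. Its change was -0.66 ± 0.33 (edgeR adjusted p = 0.182).

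The 27 tested accessory subunits of complex I, which surround the core and are needed for its assembly and stability, had 3 genes lower (11.1%, near the background) and a median of -0.38. The called genes were Ndufa9, Ndufa8 and Ndufb9, all with non-overlapping groups. All organoids lay below all 2D cultures in 6 of the 27 accessory genes (22.2%, against 30.2% of all genes tested). Ndufa9, an accessory subunit at the junction of the peripheral and membrane arms, was at 133, 133 and 136 CPM in 2D culture and at 74.2, 62.2 and 84.7 CPM in organoids and fell by 0.86 on the log2 scale (edgeR adjusted p = 0.0189). Ndufa8, a subunit on the intermembrane face, was at 93.7, 96.5 and 91.8 CPM in 2D culture and at 39.3, 60.3 and 59.9 CPM in organoids and fell by 0.82 (edgeR adjusted p = 0.0382). Ndufb9, outside the rule for named genes, was at 127, 131 and 131 CPM in 2D culture and at 63.1, 84.5 and 83.3 CPM in organoids and fell by 0.75 (edgeR adjusted p = 0.0306). The 5 calls of complex I were all lost whichever 2D culture was left out. In 22 of the 27 accessory genes organoid 2 was the highest organoid (81.5%, against 37.6% of all genes tested), and in 13 it was above every 2D culture (48.1%, close to the 43.6% of all genes). Ndufb7, which had the highest change of complex I, was at 78.7, 84.6 and 84.7 CPM in 2D culture and at 45.8, 169 and 69.2 CPM in organoids. Organoid 2 was far above 2D culture there while organoids 1 and 3 were below it, and the change of 0.20 ± 0.46 (edgeR adjusted p = 0.788) became -0.48 ± 0.20 without organoid 2 (edgeR adjusted p = 0.119). With total library size it was -0.35. Ndufa13 was chosen after its values were seen, and its counts are fractional in all 6 libraries, a sign of reads shared with other genes. It was at 87.4, 102 and 100.4 CPM in 2D culture and at 39.9, 179.5 and 49.6 CPM in organoids. Ndufa13 did not pass (-0.11 ± 0.56, edgeR adjusted p = 0.908), and without organoid 2 the change was -1.06 ± 0.16 (edgeR adjusted p = 0.00621). Without organoid 2, 14 of the 27 accessory and 3 of the 7 core genes fell (background 19.2%). Ndufs6 was not tested: it had 0.31 counts in 2D culture 1 and 0 in the other libraries, where 0 allows up to 0.0917 to 0.18 CPM.

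Complex II, the succinate dehydrogenase shared with the citric acid cycle, had 0 of 4 genes called by edgeR (background 12.6%). In edgeR 3 were lower at an unadjusted p under 0.05 (background 19.7%). DESeq2 called 3 lower (background 16.7%) and limma-voom 2 (background 19.4%). The fitted changes ran from -0.83 to -0.48. Sdha, the flavoprotein that oxidises succinate, was at 167, 151 and 169 CPM in 2D culture and at 157, 40.3 and 139 CPM in organoids. Organoid 1 lay within the 2D range and organoid 3 just under it, while organoid 2 was far lower. Its change was -0.53 ± 0.47 (edgeR adjusted p = 0.438) and -0.08 ± 0.12 without organoid 2, the value nearest 0 among the 72 members in that fit. Sdhb, the iron-sulfur subunit, was at 148, 148 and 142 CPM in 2D culture and at 112, 90.4 and 113 CPM in organoids and had a change of -0.48 ± 0.19 (edgeR adjusted p = 0.1002). Sdhc and Sdhd anchor the enzyme in the membrane. Sdhc was at 267, 277 and 279.7 CPM in 2D culture and at 159.8, 99.9 and 203 CPM in organoids and had a change of -0.83 ± 0.28 (edgeR adjusted p = 0.0702). Sdhd had a change of -0.68 ± 0.21 (edgeR adjusted p = 0.0544). Organoid 2 was the lowest organoid in all 4 Sdh genes, against 35.8% of all genes tested. In Sdhb, Sdhc and Sdhd all organoids lay below all 2D cultures (75% of the complex, against 30.2% of all genes tested). Sdhc and Sdhd fell without organoid 2 (edgeR adjusted p = 0.02904 and 0.0342).

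In complex III, the cytochrome bc1 complex, 2 of 9 genes fell (22.2%, background 12.6%), 0 rose and all 9 had a fitted change below 0 (median -0.84). Cyc1 (gene ID 300047), cytochrome c1, the haem subunit that hands electrons to cytochrome c, was at 249.5, 243 and 251 CPM in 2D culture and at 92.03, 114 and 119 CPM in organoids. The 3 organoids were close together and far below the 2D cultures, and Cyc1 fell by 1.19 on the log2 scale (-1.19 ± 0.19, edgeR adjusted p = 0.00637). Uqcr10, a small subunit of the membrane part, was at 84.7, 113 and 108 CPM in 2D culture and at 49.6, 60.7 and 51.3 CPM in organoids and fell by 0.92 (edgeR adjusted p = 0.0194). Uqcrfs1, the Rieske iron-sulfur protein that oxidises ubiquinol, was at 141, 149 and 148 CPM in 2D culture and at 77.7, 53.9 and 105 CPM in organoids and had a change of -0.88 ± 0.27 (edgeR adjusted p = 0.0516). It was called without organoid 2 (edgeR adjusted p = 0.0316). The core proteins Uqcrc1 and Uqcrc2 stabilise the complex on its matrix side. Uqcrc1 was at 367, 344 and 336 CPM in 2D culture and at 202, 131 and 300.04 CPM in organoids, with a change of -0.73 ± 0.32 (edgeR adjusted p = 0.135). Uqcrc2, with fractional counts in all 6 libraries, was at 123, 117 and 124 CPM in 2D culture and at 68.6, 17.5 and 72.8 CPM in organoids. Organoid 2 was far below the other organoids, and the change of -1.19 ± 0.50 did not pass (edgeR adjusted p = 0.122), although Uqcrc2 fell by 0.73 without organoid 2 (edgeR adjusted p = 0.00637). Uqcrq, a small subunit of the membrane part, had the highest change of the complex at -0.45 ± 0.43 (edgeR adjusted p = 0.475). Organoid 2 was above every 2D culture in Uqcrq alone among the complex III genes. Without organoid 2, 7 of the 9 genes fell (background 19.2%). With any 2D culture left out 1 did, Cyc1 (background 2.98% to 3.27%).

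In complex IV, cytochrome c oxidase, whose catalytic subunits are mitochondrially encoded, 4 of 10 tested nuclear genes fell (40%, background 12.6%) and 0 rose. Cox5a (gene ID 252934), a matrix-side structural subunit, was at 94.9, 101 and 90.6 CPM in 2D culture and at 37.6, 36.2 and 45.1 CPM in organoids. The 3 organoids were close together, organoid 2 lowest, and far below the 2D cultures, and Cox5a fell by 1.27 on the log2 scale (-1.27 ± 0.19, edgeR adjusted p = 0.00531), which was the largest fall of all members. Its counts are fractional in 5 libraries. Cox6a1, the widely expressed form of a regulatory subunit, was at 336, 378 and 350.4 CPM in 2D culture and at 159, 220.2 and 150.2 CPM in organoids and fell by 1.01 (edgeR adjusted p = 0.0186). Cox6c, a small membrane subunit, was at 76.8, 103 and 106 CPM in 2D culture and at 31.9, 58.9 and 50.6 CPM in organoids and fell by 1.02 (edgeR adjusted p = 0.0399). Cox8a, the widely expressed form of the smallest subunit and outside the rule for named genes, was at 142, 189 and 176 CPM in 2D culture and at 83.8, 77.2 and 105 CPM in organoids and fell by 0.93 (edgeR adjusted p = 0.0217). All organoids lay below all 2D cultures in these 4 genes (40%, against 30.2% of all genes tested), and the groups overlapped in the other 6. With any 2D culture left out only Cox5a of the 4 kept its call.

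Heart and skeletal muscle, and testis, use their own forms of some of these subunits. Cox6a2, the striated-muscle form of Cox6a1, was at 7.42, 9.87 and 9.56 CPM in 2D culture and at 4.48, 33.6 and 6.96 CPM in organoids. Only organoid 2 was above 2D culture, and the change of 0.75 ± 0.76 (edgeR adjusted p = 0.503) turned to -0.60 ± 0.35 without it (edgeR adjusted p = 0.228). Cox6b2, the testis form of Cox6b1, was at 2.08, 3.67 and 2.69 CPM in 2D culture and at 2.47, 2.16 and 1.703 CPM in organoids and did not pass (-0.41 ± 0.61, edgeR adjusted p = 0.654). Cox8b, the striated-muscle form of Cox8a, had 2 counts in organoid 1 and 0 elsewhere and was not tested. Cox5b, a zinc-binding subunit named after its values were seen, was at 99.4, 121 and 118 CPM in 2D culture and at 50.9, 250.03 and 83.9 CPM in organoids. Organoid 2 was the highest library while organoids 1 and 3 were below 2D culture (0.18 ± 0.56, edgeR adjusted p = 0.835), and without organoid 2 the change was -0.70 ± 0.24 (edgeR adjusted p = 0.0743). Without organoid 2, 7 of the 10 tested genes of complex IV fell (background 19.2%).

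In ATP synthase 4 of 15 genes fell (26.7%, background 12.6%), 0 rose and the median was -0.81. The catalytic F1 head, which makes ATP, is built from the products of 5 genes. Atp5f1c (gene ID 116550), the gamma subunit or rotating shaft, was at 226, 223 and 227 CPM in 2D culture and at 110.5, 122 and 124 CPM in organoids and fell by 0.92 on the log2 scale (-0.92 ± 0.18, edgeR adjusted p = 0.0112). Both groups were tight in Atp5f1c, and organoid 2 lay between the other organoids. Atp5f1b and Atp5f1a, the beta and alpha subunits that form the catalytic sites, did not pass. Atp5f1b was at 1048, 1078 and 1076 CPM in 2D culture and at 698, 416 and 671 CPM in organoids, with a change of -0.84 ± 0.26 (edgeR adjusted p = 0.0547). Atp5f1a was at 467, 481 and 488 CPM in 2D culture and at 315, 166 and 340.4 CPM in organoids, with a change of -0.81 ± 0.30 (edgeR adjusted p = 0.0924). In both, every organoid lay below every 2D culture and organoid 2 was lowest. Atp5f1d, the delta subunit at the foot of the shaft, had a change of -0.56 ± 0.21 (edgeR adjusted p = 0.0853). Atp5f1e, the small epsilon subunit beside it, was at 33.2, 47.8 and 44.4 CPM in 2D culture and at 25.98, 134 and 41.8 CPM in organoids. Organoid 2 was the highest library, organoid 1 was below every 2D culture and organoid 3 lay within their range. The change of 0.69 ± 0.59 (edgeR adjusted p = 0.425) was -0.26 ± 0.28 without organoid 2 (edgeR adjusted p = 0.506). In that fit the other 4 head genes were called lower (background 19.2%).

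**Figure D3:**
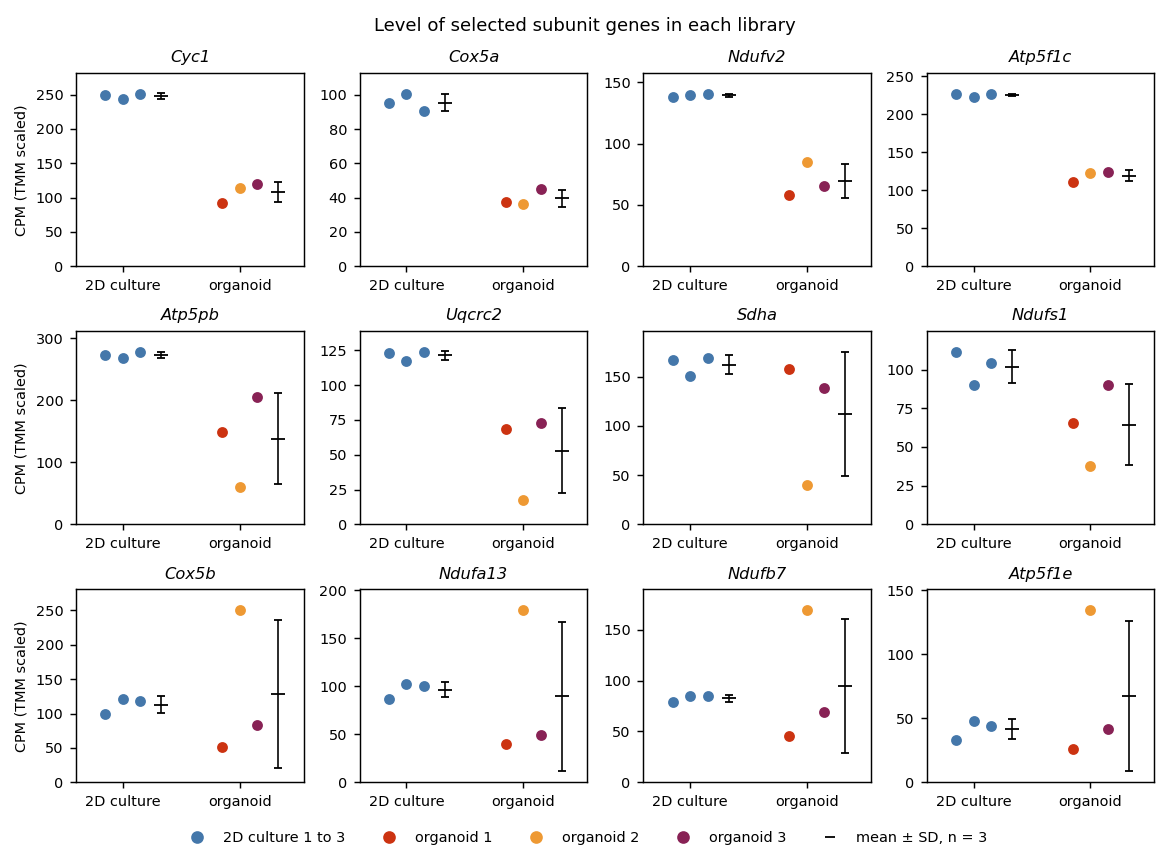
CPM in each library for 12 subunit genes, with mean ± SD (n = 3) beside each group. The top row shows genes in which the organoids are close together and below 2D culture (Cyc1, Cox5a, Ndufv2, Atp5f1c), the middle row genes in which organoid 2 is the lowest library, and the bottom row genes in which organoid 2 is the highest.

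Atp5mg, a subunit of the membrane part, was at 144, 185 and 197 CPM in 2D culture and at 72.8, 76.4 and 96.2 CPM in organoids and fell by 1.10 on the log2 scale (-1.10 ± 0.22, edgeR adjusted p = 0.0132), with no overlap between groups. Atp5mc1, Atp5mc2 and Atp5mc3 encode the same mature protein, the c subunit of the proton-driven ring, behind different targeting peptides and from different promoters. Atp5mc1 was at 189.7, 219.9 and 202 CPM in 2D culture and at 88.8, 112 and 129 CPM in organoids and fell by 0.89 (edgeR adjusted p = 0.0228). Atp5mc3 was at 54.6, 68.4 and 61.1 CPM in 2D culture and at 26.4, 40.9 and 35.7 CPM in organoids and fell by 0.84 (edgeR adjusted p = 0.0421). Atp5mc2 was at 100.3, 125 and 119.8 CPM in 2D culture and at 86.02, 87.7 and 91.7 CPM in organoids and did not pass (-0.38 ± 0.18, edgeR adjusted p = 0.169). In all 3 genes the organoids lay below the 2D cultures, as in 30.2% of all genes tested, and narrowly so in Atp5mc2. The difference between the 3 changes was not tested. Counts of Atp5mc1 are fractional in 2 libraries and those of Atp5mc2 in 3. Among the stalk and remaining membrane subunits, 1 of 7 fell (14.3%, near the background of 12.6%). Atp5pb, of the peripheral stalk that holds the head still, had its lowest value in organoid 2 (60.7 CPM, against 149 and 205 in organoids 1 and 3). Atp5pd and Atp5pf of the same stalk had their highest there (305 and 211 CPM). These 3 stalk genes were named after their values were seen. None was called in the reported test, while without organoid 2 Atp5pb and Atp5pd were (edgeR adjusted p = 0.04104 and 0.0128). Without organoid 2, 11 of the 15 ATP synthase genes fell (background 19.2%). Without 2D culture 1 Atp5mg alone kept its call, and without 2D culture 2 or 3 none of the 4 did.

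The promoters of the 3 ring genes are shown because they serve 1 protein, with that of Cox8a, a called complex IV gene. Each is the 150 bases before the RefSeq start site (assembly GRCr8), 5′ to 3′ on the gene's strand, with capitals marking matches to the motifs NRF1 (GCGCA and GCGC with 1 base of any kind between them), GABPA or ETS (CCGGAAG), YY1 (AANATGGCG), ERRA (TCAAGGTCA) and the TATA box (TATAAA), searched on both strands. NRF1, GABPA, YY1 and ERRA are transcription factors known to act on nuclear genes of the respiratory chain. The regions are chr10:81523346-81523495, chr7:135678219-135678368, chr3:79220665-79220814 and chr1:213833624-213833773, all on the minus strand.
Atp5mc1: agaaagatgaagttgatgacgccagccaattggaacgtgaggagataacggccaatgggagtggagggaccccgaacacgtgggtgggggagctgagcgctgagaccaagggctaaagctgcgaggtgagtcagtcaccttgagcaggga
Atp5mc2: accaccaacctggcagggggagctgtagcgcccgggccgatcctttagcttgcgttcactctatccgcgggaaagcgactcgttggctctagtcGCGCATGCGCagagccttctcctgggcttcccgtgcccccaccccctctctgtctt
Atp5mc3: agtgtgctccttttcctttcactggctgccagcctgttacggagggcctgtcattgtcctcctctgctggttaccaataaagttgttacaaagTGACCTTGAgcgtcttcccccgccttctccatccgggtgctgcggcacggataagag
Cox8a: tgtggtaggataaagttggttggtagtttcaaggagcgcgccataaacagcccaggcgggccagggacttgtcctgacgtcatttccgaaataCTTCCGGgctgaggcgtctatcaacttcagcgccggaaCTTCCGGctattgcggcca
Atp5mc2 holds an NRF1 match that starts 56 bases before the start site, Atp5mc3 an ERRA match on the other strand at 57, and Cox8a 2 ETS matches on the other strand at 57 and 19, while the Atp5mc1 stretch holds 0 matches. Atp5mc3 also holds an NRF1 match in the longer window of 300 bases searched below, though not within the stretch shown, so Atp5mc2 and Atp5mc3 share that motif.

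Promoter sequences were found for 64 of the 74 members and searched over 300 bases (250 before and 50 after the start). An NRF1 match was present in 13 of 64 (20.3%), against 1061 of the 10615 promoters of genes tested here and 4.71% of all 27457 in the table. An ETS match was present in 18 (28.1%, against 17.8% and 9.22%) and a YY1 match in 16 (25.0%, against 6.31% and 3.33%). ERRA matches were in 2 members (3.12%, against 0.245% of genes tested), and TATA boxes in 5 (7.81%, against 7.01%). The hypoxia response core GCGTG, bound by HIF factors, was in 27 (42.2%, against 49.5%). Of the 10 called members with a sequence, NRF1, ETS and YY1 matches were each in 2, and of the 53 that did not pass they were in 11, 16 and 14. A match is a description of the sequence and not a measured binding site.

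Of 11 tested regulators of mitochondrial gene expression 1 fell (9.09%, near the background of 12.6%) and 0 rose by edgeR, with a median change of 0.11. Ppargc1b, a coactivator of mitochondrial biogenesis, stood at 1.81, 1.77 and 2.23 CPM in 2D culture and had 0 counts in all organoids, so it was at least 35.3-fold lower (edgeR adjusted p = 0.0109, 3 counts over the group as the limit). It lost its call whichever 2D culture was left out. Nrf1, Gabpa, Yy1 and Esrra had changes of -0.24 ± 0.23, 0.14 ± 0.46, 0.56 ± 0.35 and 0.42 ± 0.995, and Tfam, a factor for transcription and packing of mitochondrial DNA, -0.62 ± 0.24. None of these 5, named outside the rule, passed, and the signs of Gabpa, Yy1 and Esrra turned with total library size. The related coactivator Ppargc1a was not tested, with 0 to 1.06 CPM. The 13 mitochondrially encoded subunits were not analysed here.

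Other steps of mitochondrial energy production were described from lists of their known genes. Of 16 genes of pyruvate dehydrogenase and the citric acid cycle 8 fell (50%, background 12.6%) and 0 rose (background 14.9%) by edgeR, and all 16 had a fitted change below 0 (median -1.003). Mdh2, the mitochondrial malate dehydrogenase, was at 417, 440.1 and 434 CPM in 2D culture and at 113, 116 and 189.5 CPM in organoids and fell by 1.62 on the log2 scale (edgeR adjusted p = 0.00677). Dlat, the acetyltransferase of pyruvate dehydrogenase, fell by 1.76, Fh, fumarase, fell by 1.72, and both lost their calls whichever 2D culture was left out. Organoid 2 was the lowest organoid in 13 of these 16 genes (81.2%, against 35.8% of all genes tested). Of 21 genes of electron carriers and ATP export 7 fell (33.3%) and 0 rose, with a median of -0.66. Slc25a5, an ADP/ATP carrier, fell by 1.14, and Pdss1, which starts the ubiquinone side chain, fell by 2.55. Cycs, cytochrome c, named outside the rule, was at 243, 247 and 253 CPM in 2D culture and at 65.6, 146 and 144 CPM in organoids and did not pass (-1.06 ± 0.33, edgeR adjusted p = 0.0525), though it was called lower by DESeq2 and by limma-voom. Of 42 assembly factors 6 fell (14.3%, near the background) and 0 rose (median -0.33). Ndufaf8, Coa3 and Lyrm7, which help build complexes I, IV and III, had changes of -2.17 ± 0.41, -1.54 ± 0.37 and -1.41 ± 0.38. The counts lower for these 3 lists were 3, 0 and 0 whichever 2D culture was left out (2.98% to 3.27% of all genes) and 10, 10 and 13 without organoid 2 (19.2% of all genes).

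Subunits outside the rule include the pairs that low oxygen is known to switch. The part of oxygen in the changes given here was not tested. Ndufa4, a complex IV subunit, fell by 1.59 (-1.59 ± 0.28, edgeR adjusted p = 0.00878) while its relative Ndufa4l2, at 0.736, 1.41 and 1.61 CPM in 2D culture and at 2011, 1669.9 and 1906 CPM in organoids, rose by 10.54 ± 0.46. Cox4i2, at 4.87, 5.8996 and 5.63 CPM in 2D culture and at 1206, 1551 and 943 CPM in organoids, rose by 7.82 ± 0.34 (edgeR adjusted p = 1.42e-04 for both), and its counterpart Cox4i1 was at 284, 308 and 285 CPM in 2D culture and at 197, 349.7 and 202 CPM in organoids and did not pass (-0.23 ± 0.28, edgeR adjusted p = 0.575). Atp5if1, the inhibitor protein of ATP synthase, was at 132, 168 and 173 CPM in 2D culture and at 42.2, 78.1 and 52.8 CPM in organoids and fell by 1.45 (edgeR adjusted p = 0.0123). It lost its call without 2D culture 2 and without 2D culture 3. Ndufab1, Cox7a2, Cox7a2l and Atp5mk did not pass, with changes of -0.87 ± 0.33, -0.15 ± 0.27, -0.06 ± 0.20 and -0.54 ± 0.48.

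The direction of the called members held across the ways of testing, and their number did not. Cyc1 and Cox5a were called lower in all 15 settings run, that is the reported test and 14 alternatives. Of the other called members Atp5mg kept its call in 12 of the 14 alternatives, Ndufv2, Atp5f1c and Cox6a1 in 11, and Ndufs3 and Atp5mc3 in 7. When libraries were scaled by their totals, not by TMM, 39 members fell (54.2%, background 27%), and the medians of members and of all genes moved together, to -1.19 and -0.65. The gap between these medians was -0.54 in the reported test, -0.54 with total library size and -0.44 to -0.63 over all settings. DESeq2 called 29 members lower (40.3%, background 16.7%) and limma-voom 24 (33.3%, background 19.4%), or 19 with a weight per group (26.4%, background 14%). DESeq2 and limma-voom each kept the 15 reported calls, and the fit with a weight per group kept 10 of them. DESeq2 size factors in edgeR gave 15 (background 12.3%), no low-count filter 15 of 73 (background 9.23%) and a minimum count of 50 gave 13 (background 12.5%). With the replicate number as a block 8 members fell (11.1%), a share near the background of 9.88%. The labels do not say whether these numbers pair the libraries. In all 15 settings 0 members were called higher.

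**Figure D4:**
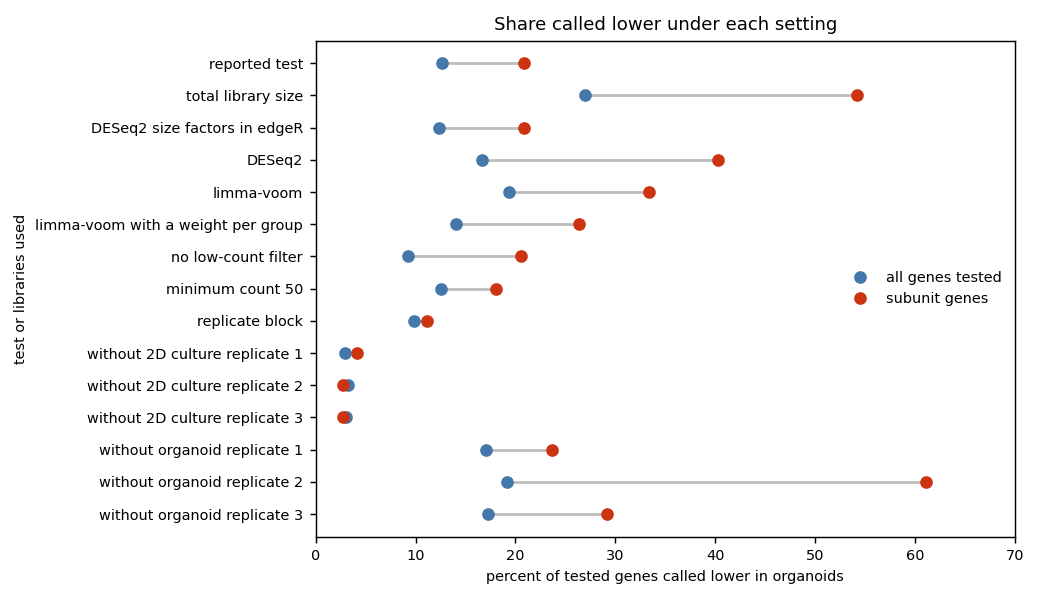
Percent of tested subunit genes (red) and of all tested genes (blue) called lower in organoids under each test or set of libraries. Subunit genes are at 20.8% against 12.6% in the reported test and 61.1% against 19.2% without organoid 2, and the 2 shares are close together when a 2D culture is left out and with the replicate block.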

How the data were processed

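RNA was isolated with Trizol, and mRNA libraries were sequenced on the DNBSEQ platform, per the labels' protocols. As tools, the submitters' processing notes list HISAT, HISAT2, Bowtie2, RSEM and DESeq2, with no role for any. Genome build, annotation and strandedness were not given in the sources used here, and no gene positions were taken from the files. The deposited values are the authors' expected counts per gene, which can be fractional and carry no normalisation. A fractional value, found for 21 of the 74 members, is a sign of reads shared among genes.

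Counts were rounded and analysed in R 4.3.3 with edgeR 4.0.16: filterByExpr (minimum count 10), TMM (factors 1.231 to 1.266 for 2D culture, 0.662 to 0.896 for organoids), robust quasi-likelihood F-test, Benjamini-Hochberg adjustment at 0.05. The SE is the size of the log2 change divided by the root of F. Per-library log2 ratios used a pseudocount of 0.1 CPM. The steps were tested on simulated data with the same dispersion in both groups and larger changes than those of the members. That test does not cover calls of this size at the unequal spread seen here. All library pairs differed beyond counting noise (chi-square over its degrees of freedom at least 8.8). Limits for a count of 0 are 3 counts and cover counting error only.

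Alternatives were total library size, DESeq2 size factors, DESeq2 1.42.0, limma-voom (limma 3.58.1) with and without a weight per group, 2 other filters, a replicate block and leaving out each library. Members and lists were chosen with earlier results of these data known. The genes named are the core, redox, tissue-restricted, F1 head and ring subunits, up to 3 called members with the largest change and the highest change of each complex, and likewise for other lists; 13 genes outside this rule were named after their values were seen, and the ribosomal protein set was added then too. The values of 1 named member are not reported here, and counts include it. Promoters are from RefSeq (GRCr8), the first listed per gene.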

Additional observations from a re-analysis of the deposited data

How the results depend on the processing

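The number of members lower, 15 as reported, ran from 2 to 44 when 1 library was left out (beside 2.98% to 19.2% of all genes tested). That range was 0 to 17 for complex I (5 as reported), 0 to 2 for complex II (0), 1 to 7 for complex III (2), 1 to 7 for complex IV (4) and 0 to 11 for ATP synthase (4). With total library size 39 members were lower (54.2%, beside 27% of all genes tested), 15 of complex I, 3 of complex II, 7 of complex III and 10 of ATP synthase. The median change was -1.19 in the members and -0.65 over all genes tested. With DESeq2 29 members were lower (beside 16.7% of all genes), 11 of complex I, 3 of complex II, 4 of complex III and 7 of ATP synthase. With limma-voom 24 members were lower (beside 19.4% of all genes), 9 of complex I, 2 of complex II and 4 of complex III. With limma-voom and a weight per group 1 gene of complex II, 4 of complex III and 2 of complex IV were lower, beside 14% of all genes. With the replicate block 8 members were lower (11.1%, beside 9.88% of all genes tested), 1 of complex I and 2 of ATP synthase. Whether replicate numbers pair the libraries is not stated in the labels. Deviations of same-numbered libraries correlated at 0.11, 0.24 and 0.03, and 2 of the 3 2D cultures correlated best with the organoid of their own number. These values do not settle it. DESeq2 size factors in edgeR, no low-count filter and a minimum count of 50 gave 15, 15 and 13 members lower (beside 12.3%, 9.23% and 12.5% of all genes). The sign turned for some genes that were not called in the reported test. With total library size Ndufb7 was at -0.35, Cox5b -0.35, Atp5pf -0.51, Gabpa -0.49, Yy1 -0.071 and Esrra -0.11. With limma-voom Ndufb7 was at -0.029, Cox5b -0.14, Atp5pf -0.21, Gabpa -0.032 and Esrra -0.41. With a weight per group the same 5 were at -0.032, -0.15, -0.21, -0.028 and -0.40, and with the replicate block at -0.031, -0.15, -0.21, -0.055 and -0.39. Without the low-count filter Atp5pf was at -0.025. Leaving out 1 library gave ranges that span 0 for Cox6a2 (-0.60 to 1.18), Atp5f1e (-0.26 to 1.08), Ndufb7 (-0.48 to 0.54), Cox5b (-0.70 to 0.57), Atp5pf (-0.63 to 0.40), Ndufa13 (-1.06 to 0.25), Atp5pd (-0.82 to 0.079), Cox7a2 (-0.31 to 0.047), Cox7a2l (-0.13 to 0.12), Gabpa (-0.34 to 0.57) and Esrra (-1.26 to 0.90). Of 476 values under these alternatives of the 34 named members with a test, 370 kept direction and side of the threshold, 53 passed it newly and 46 no longer did. The cause of these changes was not tested. Cox6b2 rests on 36 to 120 counts per library, and the effect of depth on its error was not tested.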
